A study of Mus musculus with 8 samples.

Results

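The 73 genes described here encode subunits of the mitochondrial respiratory chain and of ATP synthase. They were chosen by name from the 8251 mouse genes that the arrays represent by a probe set with a single symbol. A gene was taken if its symbol begins with Nduf, Uqcr, Atp5 or Cox4 to Cox8, or is Sdha, Sdhb, Sdhc, Sdhd, Cyc1 or Cycs. Where a gene had several probe sets, the one of highest mean value represented it. The rule uses gene names and mean levels. The members comprised 29 genes of complex I, 4 of complex II, 8 of complex III, Cycs (cytochrome c), 15 of complex IV, 14 of ATP synthase, and 2 assembly factors of complex I (Ndufaf1 and Ndufaf4). All 73 lie on nuclear chromosomes.

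Expression was measured in whole pancreas from mice 3 weeks old, on 8 Affymetrix expression arrays. There were 4 groups of 2 arrays, and all carried the NOD background, a strain prone to autoimmune diabetes. NOD had neither further allele, NOD.scid carried the scid mutation and so lacks mature T and B cells, BDC2.5/NOD carried the BDC2.5 transgene, and BDC2.5/NOD.scid carried both. BDC2.5 is a rearranged T cell receptor from a diabetogenic CD4 clone, so that in BDC2.5/NOD.scid the transgenic receptor forms without other lymphocyte receptors. Per the labels, 2 RNA isolations of 6 animals each were pooled. The labels do not tell whether both arrays of a group share a pool, so the spread behind each p-value is that between arrays and may be technical.

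Complex I takes electrons from NADH, complex II takes them from succinate, and both pass them by ubiquinone to complex III. Cytochrome c carries them on to complex IV, which reduces oxygen. Complexes I, III and IV pump protons across the inner mitochondrial membrane, and ATP synthase uses their return to make ATP. In the pancreas this ATP supports enzyme synthesis in acinar cells and, in beta cells, links glucose to insulin release. Some subunits of complexes I, III and IV and of ATP synthase are encoded in mitochondrial DNA. The other subunits come from nuclear genes such as these.

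All values are log2 expression values as deposited. The SD within a pair of arrays over the 73 members was 0.0834 in BDC2.5/NOD and 0.121 to 0.156 in the other groups. The array medians over all probe sets lay between 4.24 and 4.30. The middle probe set of the beta-actin control was high, at 9.26 to 9.55, on 3 arrays, namely the first of NOD, the first of NOD.scid and the second of BDC2.5/NOD.scid. It was 6.95 to 7.74 on the other 5 arrays. The values have no detection calls. Of the members, 11 had a mean below 4.27, the median of all probe sets, namely Ndufa12, Ndufc2, Ndufs4, Ndufaf1, Ndufaf4, Sdha, Cycs, Cox5a, Cox7a1, Cox8a and Atp5j2. In RNA from a whole organ, fewer cells of a type and less RNA per cell cannot be told apart.

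The first comparison is of the transgene on the scid background, where other lymphocyte receptors do not form. With the transgene in NOD.scid, 22 of the 73 members fell and 0 rose (at an unadjusted limma p under 0.05, 33 were lower and 1 was higher). Those that fell spanned complex I (9 of 29), complex II (1 of 4), complex III (3 of 8), complex IV (4 of 15) and ATP synthase (5 of 14). This was 30.1% of the members, while 4.03% of the 12422 probe sets tested were lower, 2.37% were higher and 6.40% passed in either direction. The calls are from limma, with p-values adjusted by the Benjamini-Hochberg method over all probe sets and called under 0.05. The log2 differences of the 22 ranged from -0.87 to -0.33, or 1.82-fold to 1.26-fold lower. When only the groups compared were fitted, 12 fell and 0 rose, where 2.11% of all probe sets were lower. Without BDC2.5/NOD.scid replicate 2 the median log2 difference of the members was -0.17, against 0.003 over all probe sets. Without NOD.scid replicate 1 it was -0.19, against -0.02.

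Over all 73 members the median log2 difference was -0.20, against -0.005 over all probe sets tested. The sign was negative for 57 members, or 78.1%, where it was negative for 51.2% of all probe sets, and it was positive for 16. For 36 members both BDC2.5/NOD.scid arrays lay below both NOD.scid arrays, or 49.3%, where 22.2% of all probe sets were so placed. For 3 members, or 4.11%, both lay above, where 20.5% of all probe sets did. Among the 62 members above the median level, 22 fell, or 35.5%, where 6.96% of the 6211 probe sets above that level fell. The median over the 73 members was 6.52 and 6.50 on the NOD arrays and 6.49 and 6.48 on those of NOD.scid. With the transgene it was 6.29 and 6.36 for BDC2.5/NOD, and for the BDC2.5/NOD.scid arrays 6.31 and 6.20. All 4 arrays with the transgene thus lay below all 4 without it.

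**Figure D1:**
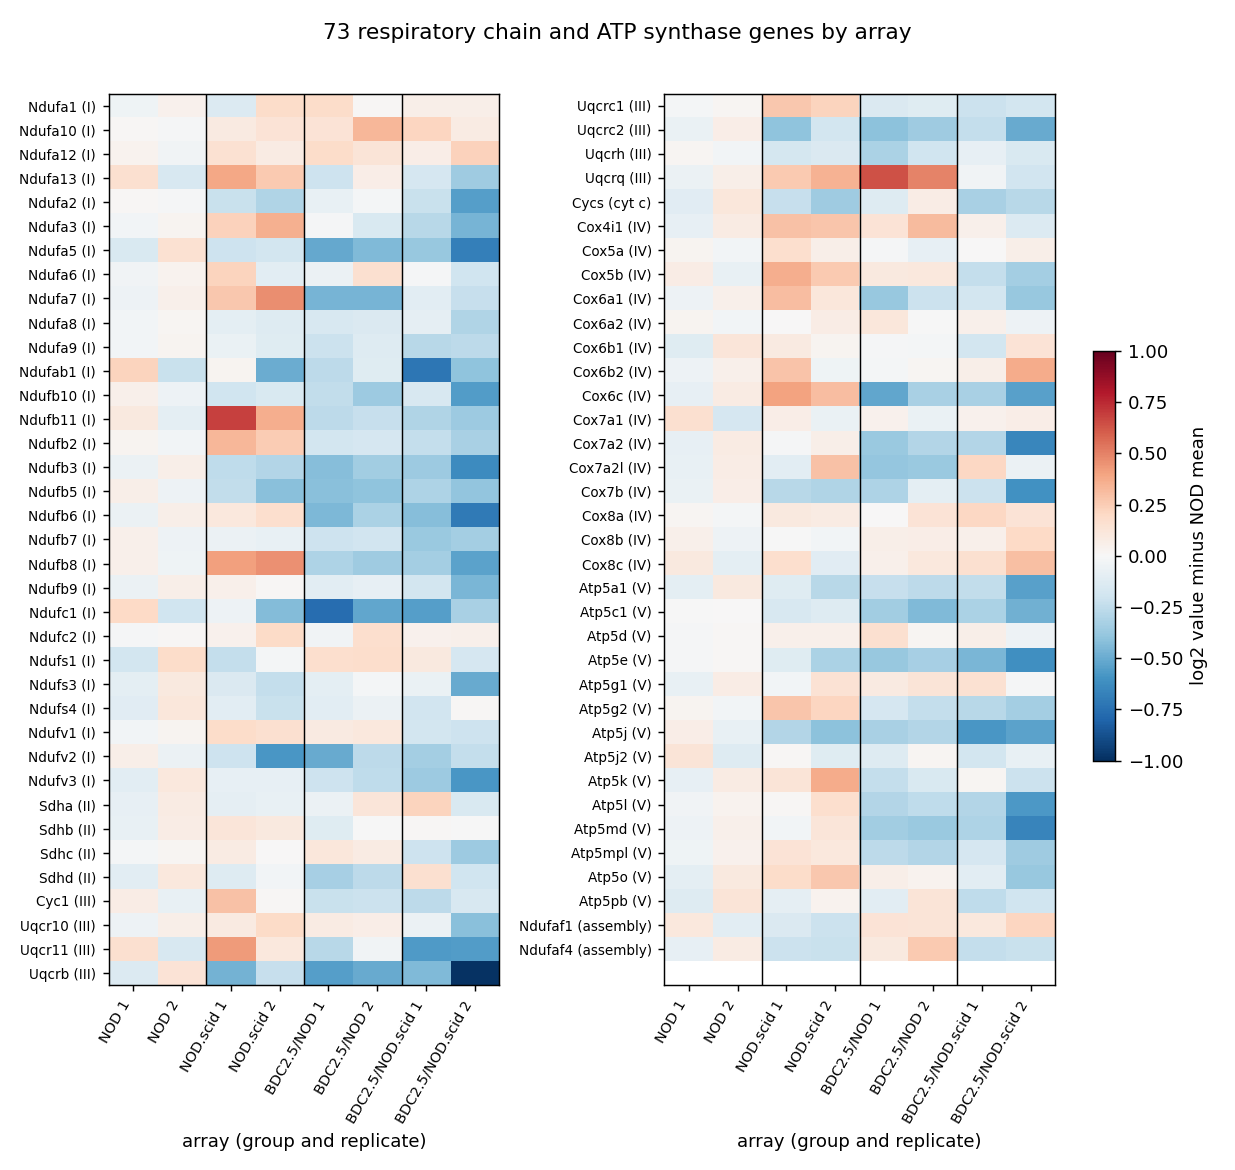
Each row is 1 of the 73 members, with its complex in brackets (V is ATP synthase), and each column is 1 of the 8 arrays. Colour gives the log2 value minus the mean of the 2 NOD arrays. Blue, meaning lower than NOD, is most frequent in the BDC2.5/NOD.scid columns. In that group 43 of the 73 members, or 58.9%, had their lowest mean, where 24.4% of all probe sets did.

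In complex I, the largest differences were in accessory subunits of the membrane arm. Ndufb8 read 6.87 and 6.91 in NOD.scid and 6.12 and 5.92 in BDC2.5/NOD.scid, a log2 difference of -0.87 (SE 0.0952, limma adjusted p = 0.000116). The groups did not overlap, and both NOD arrays, at 6.51 and 6.41, lay between them. Ndufb11 read 8.29 and 7.97 in NOD.scid and 7.31 and 7.25 in BDC2.5/NOD.scid, a difference of -0.85 (SE 0.111, limma adjusted p = 0.000488). Its NOD arrays, at 7.70 and 7.51, also lay between. Ndufb6 read 7.02 and 7.07 against 6.49 and 6.20, a difference of -0.70 (SE 0.107). Ndufb2 fell by 0.57, and its second bright probe set fell by 0.77. All 9 Ndufb genes had a negative difference, with a median of -0.35, and the 4 named here passed the threshold.

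Of the 12 Ndufa genes, Ndufa3 (-0.67), Ndufa13 (-0.59) and Ndufa7 (-0.54) fell. Ndufa13, known also as GRIM-19, is a subunit that was first described as a cell death regulator. Ndufa3 read 7.62 and 7.74 in NOD.scid and 7.11 and 6.92 in BDC2.5/NOD.scid, with no overlap. Of the 6 Ndufs and Ndufv genes, which include core subunits with flavin and iron-sulfur centres, Ndufv1 (-0.37) and Ndufv3 (-0.39) fell, and the call of Ndufv3 was lost in 13 of 22 alternative settings, the replicate block among them. Ndufv1 binds the flavin that accepts electrons from NADH. It read 8.98 and 8.96 in NOD.scid and 8.61 and 8.59 in BDC2.5/NOD.scid, so that the gap was wide beside the spread within each pair. The core subunit Ndufs1 did not pass, at 0.09. The assembly factors Ndufaf1 and Ndufaf4, which are dim, were at 0.34 and -0.01 and did not pass.

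In complex II, which is also succinate dehydrogenase of the citric acid cycle, Sdhc alone of 4 fell, at -0.33 (SE 0.0889, limma adjusted p = 0.0460). It encodes a membrane anchor, and read 7.02 and 6.95 in NOD.scid and 6.73 and 6.58 in BDC2.5/NOD.scid. This call was lost in 15 of 22 alternative settings, including the replicate block and 7 of the fits that left out 1 array, with adjusted p up to 0.263. The other anchor, Sdhd, was at 0.06 (95% interval -0.20 to 0.32). The iron-sulfur subunit Sdhb was at -0.11. The flavoprotein Sdha was dim on every array, at 2.94 to 3.32.

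In complex III, Uqcr11, a small accessory subunit, read 7.30 and 6.97 in NOD.scid and 6.30 and 6.31 in BDC2.5/NOD.scid. Its difference was -0.83 (SE 0.133, limma adjusted p = 0.00203). Uqcrc1, a core subunit without a redox centre, fell by 0.45, from 8.06 and 8.01 to 7.57 and 7.60. Uqcrq, a small subunit, fell by 0.42. The other core subunit of this kind, Uqcrc2, was at -0.08 and Uqcrh, the hinge protein, was at 0.04, and neither passed. Cyc1, the cytochrome c1 subunit, was at -0.36 and did not pass. Cycs was dim, at 3.40 to 3.87 on all arrays, and its difference was -0.01.

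In complex IV, Cox6c read 8.46 and 8.37 in NOD.scid and 7.73 and 7.52 in BDC2.5/NOD.scid, a difference of -0.79 (SE 0.105, limma adjusted p = 0.000567). Cox5b fell by 0.60, from 7.02 and 6.91 to 6.41 and 6.31. Cox7a2 and Cox6a1 fell by 0.50 and 0.49. Several of these subunits have partner genes for other tissues. Cox6a2, Cox7a1 and Cox8b, the forms of heart and skeletal muscle, were at -0.04, 0.05 and 0.14 and did not pass. Cox6b2 and Cox8c, known from testis, were at 0.09 and 0.20 and did not pass. The muscle markers as a list had 0 of 17 measured genes past the threshold in this comparison, and their summed linear level was 607 to 613 and 597 to 639 without and with the transgene. At an unadjusted limma p under 0.05, 1 of the 17 was lower. Cox4i1 (-0.33), Cox7b (-0.12), Cox6b1 (-0.08), Cox7a2l (-0.02) and Cox8a (0.08) did not pass either. Levels of different probe sets cannot be set against each other, so the share of each form is not known.

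In ATP synthase, genes of the membrane sector Fo made up 4 of the 5 that fell. Atp5g2, which encodes the subunit of the rotating c ring, read 6.33 and 6.27 in NOD.scid and 5.78 and 5.72 in BDC2.5/NOD.scid, a difference of -0.55 (SE 0.0881, limma adjusted p = 0.00197). Atp5g1, another gene for the c ring subunit, read 6.35 and 6.52 against 6.52 and 6.36, a difference of 0.01 (95% interval -0.21 to 0.22). Atp5l and Atp5md, small membrane subunits, each fell by 0.53, and Atp5mpl fell by 0.38. Atp5o, the stalk subunit that confers oligomycin sensitivity, fell by 0.47. In the catalytic head F1, Atp5a1 (-0.20), Atp5c1 (-0.25) and Atp5e (-0.31) did not pass, and Atp5d was at -0.05.

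**Figure D2:**
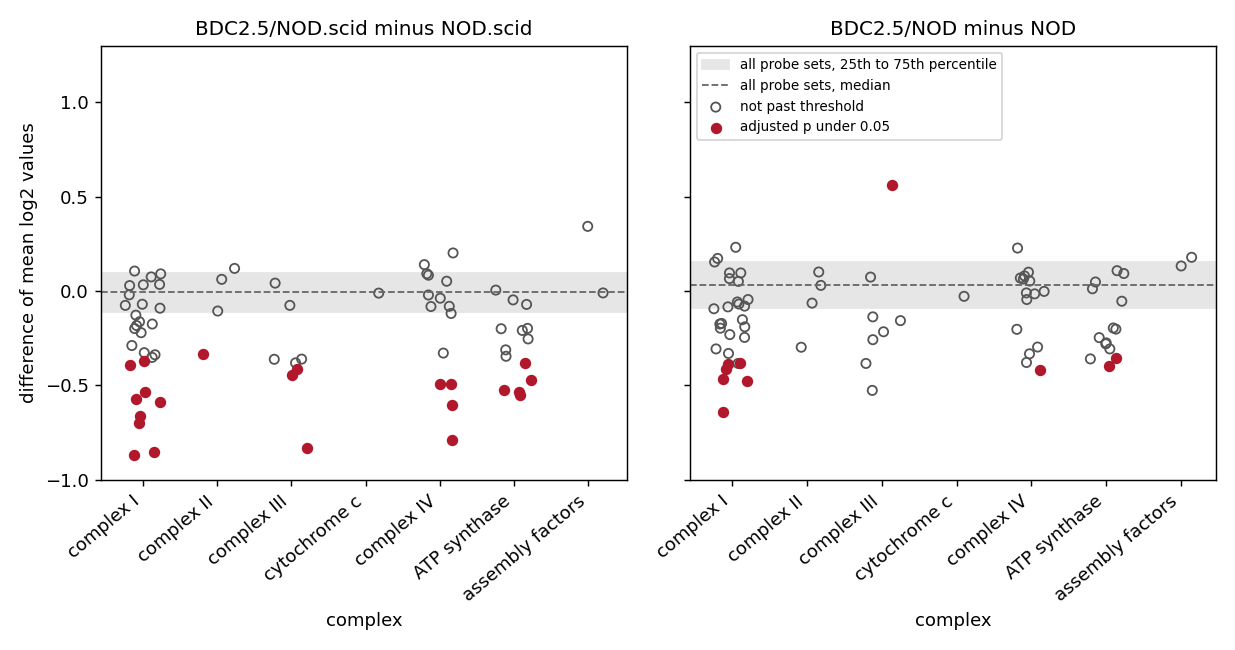
Each point is 1 of the 73 members, placed by complex, with the difference of mean log2 values on the vertical axis for the transgene in NOD.scid on the left and in NOD on the right. Filled points passed a limma adjusted p of 0.05, and the grey band holds the 25th to 75th percentile of all 12422 probe sets. The 22 filled points on the left all lie below the band, and on the right 9 lie below it and Uqcrq lies above it.

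The sequence before the start is shown for the members with the largest differences in NOD.scid. RefSeq promoter entries on GRCm38.p6, which is the C57BL/6J genome and not that of NOD, matched 59 of the 73 members. Of the 7 members with the lowest differences in NOD.scid, 6 had an entry, and Cox6c did not. Each line gives the 120 bases before the start, 5′ to 3′ on the strand of the gene. Capitals mark matches, on either strand, to GCGCATG (a short site of nuclear respiratory factor 1), CCGGAAG (ETS factors such as GABP), AAGATGG (YY1) or GGGCGG (the GC box).
Ndufb8, chr19:44555443-44555562, minus strand: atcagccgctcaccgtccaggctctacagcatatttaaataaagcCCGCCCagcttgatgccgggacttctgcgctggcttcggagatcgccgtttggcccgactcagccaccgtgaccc
Ndufb11, chrX:20617620-20617739, minus strand: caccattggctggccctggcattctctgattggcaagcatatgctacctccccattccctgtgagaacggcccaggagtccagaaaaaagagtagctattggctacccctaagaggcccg
Uqcr11, chr10:80406822-80406941, minus strand: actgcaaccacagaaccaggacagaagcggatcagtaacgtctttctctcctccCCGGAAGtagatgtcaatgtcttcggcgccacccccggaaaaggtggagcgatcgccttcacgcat
Ndufb6, chr4:40279422-40279541, minus strand: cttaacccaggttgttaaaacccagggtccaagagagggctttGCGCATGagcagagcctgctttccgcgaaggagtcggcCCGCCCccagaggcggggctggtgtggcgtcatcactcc
Ndufa3, chr7:3617253-3617372, plus strand: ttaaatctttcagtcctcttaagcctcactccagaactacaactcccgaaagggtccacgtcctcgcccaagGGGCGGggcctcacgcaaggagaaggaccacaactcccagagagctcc
Cox5b, chr1:36691367-36691486, plus strand: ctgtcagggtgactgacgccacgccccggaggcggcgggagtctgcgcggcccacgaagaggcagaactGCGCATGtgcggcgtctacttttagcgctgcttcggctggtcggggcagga

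Nuclear respiratory factor 1, GABP and YY1 are textbook activators of nuclear genes for the respiratory chain. Over the full 300 bases of each entry (250 before and 50 after the start), GCGCATG was found in 21.9% of the 64 entries of members and in 3.91% of all 32851 entries. The longer palindromic motif of nuclear respiratory factor 1, which can overlap the short site, was found in 20.3% of member entries (13 of 64) and in 1512 of all entries. CCGGAAG was found in 16 of the 64 and in 8.86% of all, AAGATGG in 12.5% and 6.34%, and GGGCGG in 46.9% and 35.7%. Of the 18 members with an entry that fell in NOD.scid, 8 held GCGCATG, as did 6 of the other 41. The longer motif of the same factor was held by 4 of the 18 and 8 of the 41, and CCGGAAG by 5 and 11. AAGATGG was held by 2 and 6, and GGGCGG by 9 and 20. None of these splits was tested. A match describes the letters only and does not show that a factor binds there.

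The second comparison is of the transgene in NOD, which has its other lymphocytes. With the transgene in NOD, 9 members fell and 1 rose. The 9 were 12.3% of the members, and 4.06% of all probe sets were lower, 3.91% were higher and 7.97% passed in either direction. They were Ndufc1 (-0.64), Ndufa5 (-0.48), Ndufa7 (-0.47), Ndufb5 (-0.41), Ndufb3 (-0.39) and Ndufb6 (-0.38) in complex I, Cox6c (-0.42) in complex IV, and Atp5c1 (-0.40) and Atp5e (-0.36) in the F1 head of ATP synthase. Uqcrq rose by 0.57 (SE 0.0889, limma adjusted p = 0.00210). The median over the 73 members was -0.14, against 0.03 over all probe sets. The difference was negative for 50 members, or 68.5%, where it was negative for 42.1% of all probe sets. Among the 62 members above the median level 9 fell, or 14.5%, where 6.7% of the 6211 probe sets above that level fell. The count that fell was 0 with either BDC2.5/NOD array left out singly, 2 with either NOD array left out singly, and 14 with either BDC2.5/NOD.scid array left out singly. The count was 22 with the class of the actin control as a term, where 6.75% of all probe sets were lower. With a replicate block it was 4, where 3.26% of all probe sets were lower. With the BDC2.5/NOD pair averaged to 1 sample, the median over the members was -0.14.

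Ndufc1, a small membrane subunit, read 6.89 and 6.50 in NOD and 5.93 and 6.17 in BDC2.5/NOD, with wide pairs that did not overlap. Ndufa7 read 8.56 and 8.66 in NOD and 8.15 and 8.14 in BDC2.5/NOD (SE 0.0928, limma adjusted p = 0.00908). Ndufb5 read 8.36 and 8.25 against 7.88 and 7.90. Atp5c1, the central stalk that turns within F1, read 7.18 on both NOD arrays and 6.83 and 6.74 on the BDC2.5/NOD arrays. A second probe set of Atp5c1 was at -0.38 and did not pass. For each of these genes the BDC2.5/NOD values lay below all NOD values. Over all members this held for 37, or 50.7%, where 22.8% of all probe sets were so placed. Above all NOD values lay 13 members, or 17.8%, against 33.5% of all probe sets.

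The comparisons of the transgene in NOD.scid and in NOD share no array, but their p-values rest on 1 spread estimate over all 8 arrays. Cox6c, Ndufa7 and Ndufb6 fell in both, which is 13.6% of the 22 and 33.3% of the 9. They were 4.11% of the members, where 1.09% of all probe sets fell in both. In NOD, the calls of Cox6c and Ndufb6 were lost when all probe sets of a symbol were averaged. The further probe sets of Cox6c were at 0.38 and -0.34 in NOD, and that of Ndufb6 was at -0.04. None of these further probe sets passed. In all, 44 members, or 60.3%, had a negative difference in both, where 25% of all probe sets did. For 22 members, or 30.1%, all 4 arrays with the transgene lay below all 4 without it, where 5.35% of all probe sets were so placed. These included Cox6a1, Cox6c and Cox7a2 in complex IV, Cyc1 and Uqcrc1 in complex III, and Atp5c1, Atp5e, Atp5g2, Atp5l, Atp5md and Atp5mpl in ATP synthase. The other 11 were genes of complex I. In 1 member, or 1.37%, the arrays with the transgene lay above all others, where 5.44% of all probe sets did.

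The interaction, which is the transgene difference in NOD.scid minus that in NOD, was below 0 and past the threshold for 6 members and above it for 0. This was 8.22% of the members, where 2.5% of all probe sets passed below 0, 2.22% above and 4.72% in all. Above the median level, 9.68% of the 62 members and 4.3% of the probe sets passed below 0. Uqcrq stood out among the 6 by its direction. Without the transgene it read 9.93 and 10.04 in NOD and 10.25 and 10.33 in NOD.scid. With it, the BDC2.5/NOD arrays read 10.62 and 10.48 and the BDC2.5/NOD.scid arrays 9.95 and 9.80. By mean the transgene groups were thus the highest and the lowest, although the BDC2.5/NOD.scid and NOD arrays overlapped. The interaction was -0.98 (SE 0.126, limma adjusted p = 0.000712). Cox5b read 6.72 and 6.58 in NOD and 7.02 and 6.91 in NOD.scid. Its BDC2.5/NOD arrays, at 6.74 and 6.75, were near those of NOD, and its BDC2.5/NOD.scid arrays, at 6.41 and 6.31, were the lowest. Its interaction was -0.70 (SE 0.130, limma adjusted p = 0.00888).

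For Ndufb11, Ndufa3, Ndufb8 and Ndufv1 the interactions were -0.61, -0.59, -0.54 and -0.47. Ndufb11 and Ndufb8 were high in NOD.scid, and their BDC2.5/NOD arrays, at 7.34 and 7.38 and at 6.15 and 6.11, were close to those of BDC2.5/NOD.scid. Ndufv1 was the other way about, with 8.88 and 8.90 in BDC2.5/NOD, above its NOD arrays at 8.77 and 8.83. The count of 6 was 1 with either BDC2.5/NOD array left out singly, 2 without BDC2.5/NOD.scid replicate 2 or NOD replicate 2, and 3 without NOD replicate 1. It was 2 under quantile normalization and 2 with a replicate block.

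**Figure D3:**
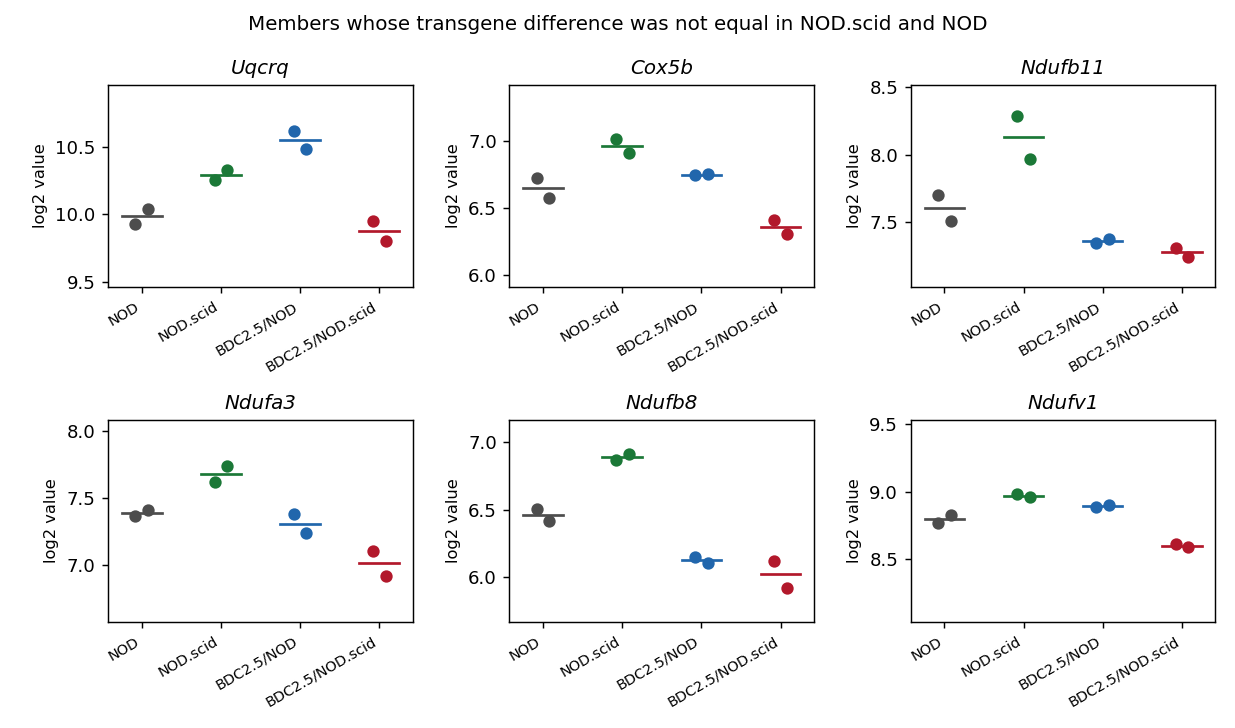
Points give the log2 value on each of the 8 arrays for the 6 members whose interaction passed, and lines give the mean of each pair. Each vertical axis spans the same range of 1.5 log2 units but starts at its own level. In all 6 panels BDC2.5/NOD.scid has the lowest mean, and in Uqcrq alone BDC2.5/NOD has the highest.

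Between NOD.scid and NOD without the transgene, only Ndufb11 (0.52) and Ndufb8 (0.43) differed, both higher in NOD.scid. This was 2.74% of the members, near the 2.35% of all probe sets that passed in either direction (0.741% higher and 1.61% lower). The count was 0 with either NOD array left out singly, 0 with either BDC2.5/NOD array left out singly and 1 without NOD.scid replicate 2. With the class of the actin control as a term it was 12, of which 8 were higher and 4 lower. In that setting 5.95% of all probe sets passed in either direction. The median over members was 0.04, against 0.03 over all probe sets.

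Between BDC2.5/NOD.scid and BDC2.5/NOD, 5 members were lower in the former and 0 were higher. This was 6.85% of the members, near the 5.35% of all probe sets that were lower, while 2.99% were higher and 8.35% passed in all. Above the median level, 6.45% of the 62 members were lower, a smaller share than the 8.98% of probe sets there. The 5 were Uqcrq (-0.68), Ndufaf4 (-0.41), Sdhc (-0.39), Cox5b (-0.39) and Ndufv1 (-0.30). Sdhc read 7.06 and 7.03 in BDC2.5/NOD and 6.73 and 6.58 in BDC2.5/NOD.scid. The count was 1 with either BDC2.5/NOD array left out singly, and without BDC2.5/NOD.scid replicate 2 it was 3, of which 2 were higher.

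Genes that serve the chain in other ways were read from lists. Of 20 measured assembly factors and regulators, 3 fell with the transgene in NOD.scid and 3 in NOD. Uqcc2, an assembly factor of complex III, fell in both (-0.86 and -0.53), as did Atpif1, the inhibitor of ATP synthase (-0.46 and -0.74). Sdhaf1, an assembly factor of complex II, fell in NOD.scid (-0.45), and Cox17, the copper chaperone of complex IV, fell in NOD (-0.78). The list's median difference was -0.23 in NOD.scid and -0.05 in NOD. It counts Atp6ap1, an accessory protein of the vacuolar proton pump and not of the respiratory chain, and without it the medians of the 19 others were -0.16 and -0.01.

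Of 17 citric acid cycle and pyruvate dehydrogenase genes, Idh2 alone fell in NOD.scid, at -0.47. In NOD, Idh2 (-0.39), Suclg1 (-0.46) and Sucla2 (-0.52) fell and Pcx (pyruvate carboxylase) rose by 0.57. The medians were -0.08 in NOD.scid and -0.02 in NOD. Citrate synthase (Cs) was at -0.03 in NOD.scid and 0.14 in NOD and did not pass. Of 38 genes of the mitochondrial ribosome and protein import, 7 fell in NOD.scid, among them Mrpl28 (-0.68), Timm17b (-0.49) and Phb2 (-0.49), and the list's median was -0.12. In NOD, Tomm70a fell (-0.55) and Timm23 rose (0.43).

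Of 14 carriers and channels, 0 passed in NOD.scid by limma, and in NOD the ADP/ATP carrier Slc25a4 fell by 0.73 and the citrate carrier Slc25a1 rose by 0.44. At an unadjusted limma p under 0.05, 1 of them, Vdac3, was lower in NOD.scid, and the list's median was 0.02 there. Of 14 genes listed as regulators of mitochondrial biogenesis, Prc1 fell in NOD.scid (-0.38) and Myc in NOD (-0.82). Prc1 is known for cell division and is not a mitochondrial regulator. Ppargc1a and Tfam were dim, with means of 2.54 and 2.47, and did not pass. Of 17 glycolytic genes, 0 passed in NOD.scid by limma, with 1 (Aldoc) lower at an unadjusted p under 0.05. In NOD, Ldha (0.57), Hk2 (0.53), Eno3 (0.47) and Pgam1 (0.39) rose while Hk1 (-0.47) fell. Eno3 is also among the 17 muscle markers, and it alone of them passed in NOD. At an unadjusted limma p under 0.05, 5 of those 17 were higher in NOD with the transgene and 0 were lower.

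Markers of several cell types moved in the same comparisons. Of 12 islet markers, 6 fell with the transgene in NOD.scid, and their summed linear level was 3735 to 4147 in NOD.scid and 1460 to 1602 in BDC2.5/NOD.scid. In NOD 6 fell, from 3501 to 3581 in NOD to 2104 to 2157 in BDC2.5/NOD. Of 9 stromal markers, 5 fell in NOD.scid (1016 to 1124 against 886 to 904) and 7 in NOD (1172 to 1195 against 667 to 670). Of 7 red cell markers, 5 fell in NOD.scid, from 4676 to 4900 down to 2078 to 2222, and NOD was at 2204 to 2479. Of 8 neutrophil markers, 5 fell in NOD.scid, and of 12 macrophage markers, 7 rose. Of 8 measured acinar markers 0 passed in NOD.scid by limma, with 2 higher at an unadjusted p under 0.05, and their sum was 54770 to 56470 in NOD.scid and 52740 to 54040 in BDC2.5/NOD.scid. In NOD, the acinar genes Amy1 and Sycn rose and Pnliprp1 fell, and their list summed to 53820 to 54620 in NOD and 53240 to 55300 in BDC2.5/NOD. Of 8 duct markers, Cftr and Muc1 rose and Car2 fell in NOD, and Car2 alone fell in NOD.scid. In NOD 2 red cell markers (Hba-a1 and Hbb-b2) and 2 neutrophil markers (S100a8 and S100a9) fell. Of 10 T cell and 6 B cell markers, 0 passed by limma in any of the 5 comparisons. At an unadjusted p under 0.05, 2 T cell markers were higher with the transgene in NOD.scid and 1 in NOD. By the same measure 1 T cell marker was lower in NOD.scid than in NOD. In BDC2.5/NOD.scid against BDC2.5/NOD, 1 T cell marker was higher and 1 B cell marker was lower. For the interaction, 1 T cell marker was above 0. The part of these cells in the members' differences was not tested. Actin signal at the 3' end over that at the 5' end came to 3.94 to 4.90 on the 3 arrays of high actin control and to 3.15 to 3.53 elsewhere. The same ratio for Gapdh was 2.43 on NOD replicate 1 and 1.66 to 1.86 on the other 7 arrays. The part of either ratio was not tested.

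Some members are read by probe sets that may also detect related sequences. The suffix _f_at marks a probe set whose probes match a family of similar sequences, and it was carried by 10 members, of which 5 fell in NOD.scid and 2 in NOD. Of the 54 members on probe sets with no such mark of any kind, 16 fell in NOD.scid and 4 in NOD. Over all probe sets tested 4.03% and 4.06% were lower, and shares by suffix over all probe sets were not counted. For Cox6c, Atp5g2, Atp5l, Ndufa3 and Ndufb6, further and dimmer probe sets did not pass in NOD.scid, with differences of -0.15 and 0.10, -0.03, -0.21, -0.27 and 0.12. For Ndufb2, a pair of dim probe sets (0.08 and 0.04) did not pass where its bright ones did. In NOD, the second bright probe set of Ndufb2 fell by 0.45, while the one that represented it was at -0.175 and did not pass. The dim ones were at 0.36 and 0.04 in NOD and did not pass. A dim probe set of Ndufa1 rose by 0.51 in NOD, where the brighter one was at 0.10 and did not pass. Probe sets annotated to several symbols were not members. Of 10 such probe sets, 5 fell in NOD.scid and 5 did not pass, at -0.30 to -0.07. Among those that fell were both for Cox7c and Gm12338, at -0.85 and -0.34, and the one for Ndufa11 and Ndufa11b, at -0.64.

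**Figure D4:**
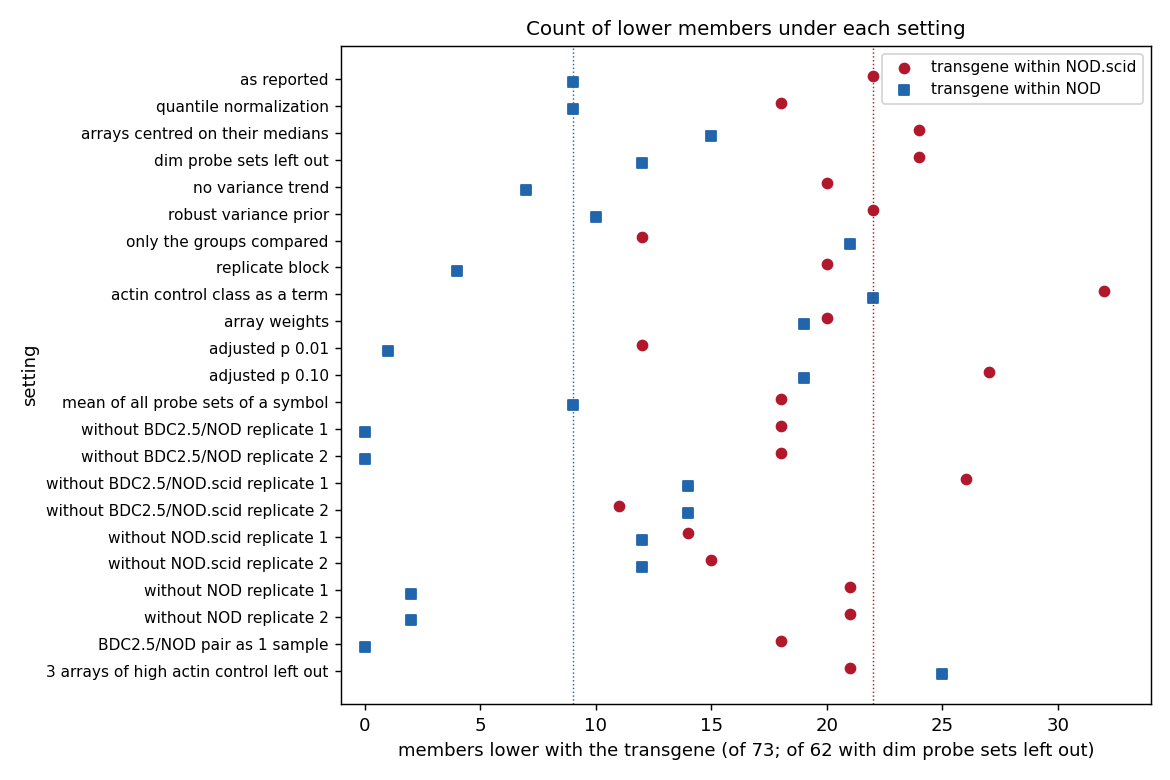
The horizontal axis counts the members lower with the transgene, as reported and under each alternative setting on the vertical axis, for NOD.scid (circles) and NOD (squares); dotted lines mark the reported counts of 22 and 9. The count ranges from 11 to 32 in NOD.scid and from 0 to 25 in NOD.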

How the data were processed

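RNA of whole pancreas was labelled from 10 ug of total RNA and read on 8 arrays. The authors deposited log2 values, 1 per probe set and array, made from Affymetrix scans by a normalization and probe summary that the labels leave out; base 2 was inferred from the range of values, up to 13.78. The 66 control probe sets were left out of the fit, and 12422 were tested. Gene names came from the platform annotation, with 10833 probe sets of 1 symbol, 396 of several and 1193 of none, and all 73 members were found in GRCm38.p6. One model over the 4 groups was fitted in limma 3.58.1 (R 4.3.3) with moderated variances and a trend, on 4 residual degrees of freedom, with Benjamini-Hochberg adjustment over all probe sets within each of 5 comparisons. The fitting code was tested on simulated data. The members and lists were chosen with earlier results of these data known. Named genes were the members that passed in any comparison, members with a paralog or a core role, up to 3 genes past the threshold with the smallest p from each other list, and probe sets that disagreed. Uqcrh, Atp5d, Ndufaf1, Suclg1, Eno3, Pgam1, Cs, Ppargc1a, Tfam, Vdac3 and Aldoc were chosen after their values were seen. Alternatives were quantile normalization, centring, leaving out dim probe sets, other variance models, fitting only the groups compared, a replicate block, the class of the actin control as a term, array weights, other thresholds, the mean of a symbol's probe sets, and leaving out each array. The correlation of deviations between arrays with the same replicate number ran from -0.32 to 0.29. With 2 arrays a group this cannot settle whether the numbers pair the arrays. With 2 arrays a group, their number limits the precision.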

Additional observations from a re-analysis of the deposited data

Results flagged for a closer look

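For 6 members the effect of the transgene differed between NOD.scid and NOD by a test of that difference in limma. The log2 effect in NOD.scid minus that in NOD was -0.981 for Uqcrq, -0.704 for Cox5b, -0.608 for Ndufb11, -0.585 for Ndufa3, -0.537 for Ndufb8 and -0.467 for Ndufv1. Uqcrq was the one member of these that fell in NOD.scid and rose in NOD. No member's 2 arrays per group allow a test for a single array far from the others.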

How the results depend on the processing

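None of the 45 single-gene calls changed sign under any setting tried. Of the 10 calls with the transgene in NOD, 0 passed in all settings. For scid, 0 of 2 did so without the transgene and 1 of 5 with it, and for the interaction 1 of 6. With the transgene in NOD.scid, 7 of the 22 passed in all (Cox5b, Ndufa3, Ndufa7, Ndufb11, Ndufb8, Uqcr11 and Uqcrc1). For that comparison the count of 22 was 12 with only the groups compared, 12 at an adjusted p of 0.01, 20 with a replicate block, and 11 to 26 leaving out each array. The median of -0.199 was -0.3 without dim probe sets and ran from -0.291 to -0.172 leaving out each array. For the transgene in NOD the count of 10 in either direction was 16 after centring, 22 with only the groups compared, 5 with a replicate block, 23 with the actin class as a term, 20 with array weights, 2 at 0.01, 20 at 0.10, 1 with the BDC2.5/NOD pair as 1 sample, and 0 to 15 leaving out each array. It was 26 without the 3 arrays of high actin control, an alternative chosen after seeing the data, in which only the BDC2.5/NOD pair gives the spread. Its median was -0.193 without dim probe sets and -0.16 to -0.094 leaving out each array. Without the transgene, the count of 2 for scid was 0 with only the groups compared, 1 with a replicate block, 12 with the actin term, 1 with array weights, 0 at 0.01, 6 at 0.10, 0 with the pair as 1 sample, and 0 to 2 leaving out each array. With the transgene, the count of 5 was 11 with the actin term, 8 with array weights, 1 at 0.01, 10 at 0.10, 1 with the pair as 1 sample, 4 with a replicate block, and 1 to 7 leaving out each array. Its median was -0.027 after quantile normalization and -0.146 to -0.021 leaving out each array. For the interaction the count of 6 was 2 after quantile normalization, 3 without the variance trend, 2 with a replicate block, 14 with the actin term, 2 at 0.01, 11 at 0.10, 1 with the pair as 1 sample, and 1 to 7 leaving out each array, and its median ran from -0.134 to -0.042. The share of all probe sets that passed in either direction changed with the setting too. With the actin term it was 10.6% for the transgene in NOD.scid and 12.1% in NOD. For scid it was 5.95% without the transgene and 12.3% with it, and for the interaction 8.39%. With array weights it was 12.6% for the transgene in NOD and 10.4% for scid with the transgene. The cause of these changes was not tested. Fitting only the groups compared gives no interaction. The interaction of Uqcrq passed in every setting run, and its rise in NOD lost its call only without BDC2.5/NOD replicate 1 (limma adjusted p 0.0566 for Uqcrq). Leaving out an array leaves a lone sample that is assumed to vary like the other groups. The 11 dim members limit what can be said of them, since the values have no detection calls.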
